A study of Mus musculus with 91 samples.

Results

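The collagen genes of the mouse fetal gonad were examined in sorted cell populations on Affymetrix Mouse Gene 1.0 ST arrays, which read most genes with a set of probes called a transcript cluster. They were chosen by name alone, as every transcript cluster that names a single gene with a symbol of the form Col, number, a, number. There were 46 such clusters among 21789 that name a single gene, and they stood for 44 genes. *Col6a5* and *Col6a6* each had more than 1 cluster, and the cluster with the higher mean over the sorted-cell arrays was used. By textbook class, 11 of the 44 genes encode fibrillar chains, 8 encode chains of the basement membrane and 25 encode other types.

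Collagens are secreted triple helices whose chains are named by type and number. Fibrillar collagens form the load-bearing cables of loose connective tissue, network-forming type IV collagen is the scaffold of every basement membrane, and fibril-associated and beaded-filament types coat or link the fibrils. In the fetal testis, Sertoli cells and the peritubular cells that surround them lay down a basement membrane around the cords, whereas the interstitium between the cords is a vascular connective tissue.

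Gonads of XX and XY embryos aged E11.5, E12.5 or E13.5 were pooled by sex from one or more litters, dissociated with trypsin and sorted for a fluorescent reporter, with 3 arrays for each of 30 groups. Supporting cells carried *Sry-EGFP* in XX at every stage and in XY at E11.5, and *Sox9-ECFP* in XY at E12.5 and E13.5, so stage and reporter cannot be told apart in XY supporting cells, nor sex and reporter where supporting cells of the sexes are compared after E11.5. At E11.5 both sexes carried *Sry-EGFP*. Interstitial (XY) and stromal (XX) cells were sorted with a reporter of their own, germ cells carried *Oct4-EGFP*, endothelial cells carried *Flk1-mCherry*, and an additional mesenchymal population carried *αSma-EYFP*. The supporting and germ cells came from crosses between CD-1 and C57BL/6J mice, the interstitial and stromal cells from CD-1 crossed to a mixed background, the endothelial cells from CD-1 and the *αSma-EYFP* cells from mice labelled FVB, so lineage and strain cannot be told apart, while XX and XY of a lineage shared a background. The E11.5 endothelial sorts held part of the adjacent mesonephros, and for the germ cell sorts the mesonephros was left attached. A single array of whole newborn mouse served as a description only.

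All levels below are log2 intensities, where a step of 1 is a doubling of signal, and levels were compared only within a gene. A gene was called when limma's moderated test gave a Benjamini-Hochberg adjusted p under 0.05 over all tested clusters together with a fold above 1.5. Beside the first count of collagen genes called in each comparison stands the percentage of all tested clusters called the same way. Counts at looser limits (an unadjusted p or no fold limit) have no such percentage, and the percentages given do not apply to them. The p-values and standard errors rest on 1 spread per cluster, that among pools within groups. It is shared over all 24 or 30 groups of a fit and moderated by limma. They therefore do not follow the spread of the 3 pools of any single group. In sorted populations, fewer cells of a type and less RNA per cell cannot be told apart.

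Markers of other cell types were also read in these sorts, and they moved with several results below. In XY interstitial cells the mean level of 6 Sertoli markers was 7.89 at E11.5, 9.25 at E12.5 and 8.74 at E13.5, against 6.87, 7.03 and 6.94 in XX stromal cells and 9.13, 10.39 and 10.47 in XY supporting cells. In XX stromal cells the mean level of 5 pre-granulosa markers was 7.90, 8.72 and 8.84, against 7.24, 7.03 and 7.07 in XY interstitial cells. In XY endothelial cells the mean level of 5 Leydig cell markers rose from 5.60 at E11.5 to 7.93 and 10.02, against 5.41 to 5.54 in XX endothelial cells. The 8 endothelial markers averaged 10.17 to 10.62 in the endothelial groups. There 7 macrophage markers averaged 7.53 to 8.35, against 6.05 to 6.63 in the other sorted groups. For 5 red blood markers the ranges were 8.05 to 8.98 and 6.47 to 7.41. The study found by staining that the XY *Flk1-mCherry* sort held Leydig cells, so endothelial names the reporter here and not a pure population.

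The collagens fell into a small variable set and a larger set that barely moved. Over the 30 group means, 14 of the 44 genes spanned more than 1 log2 unit, led by *Col12a1* (4.63), *Col14a1* (3.89), *Col18a1* (2.66), *Col6a3* (2.59), *Col1a2* (2.48), *Col15a1* (2.46), *Col4a1* (2.36) and *Col3a1* (2.35). By contrast, 22 genes stayed within 1.5-fold over all 30 groups, and the other 8 lay between. Over the 39 comparisons made between lineages, sexes, stages and reporters, 15 of the 44 genes were called at least once and 29 in none. These counts of span and of calls have no share over all tested clusters beside them. They describe the collagens alone and do not set them apart from other genes. All 44 genes passed the filter on low values, which asked for a level above 6 in at least 2 arrays of some group.

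**Figure D1:**
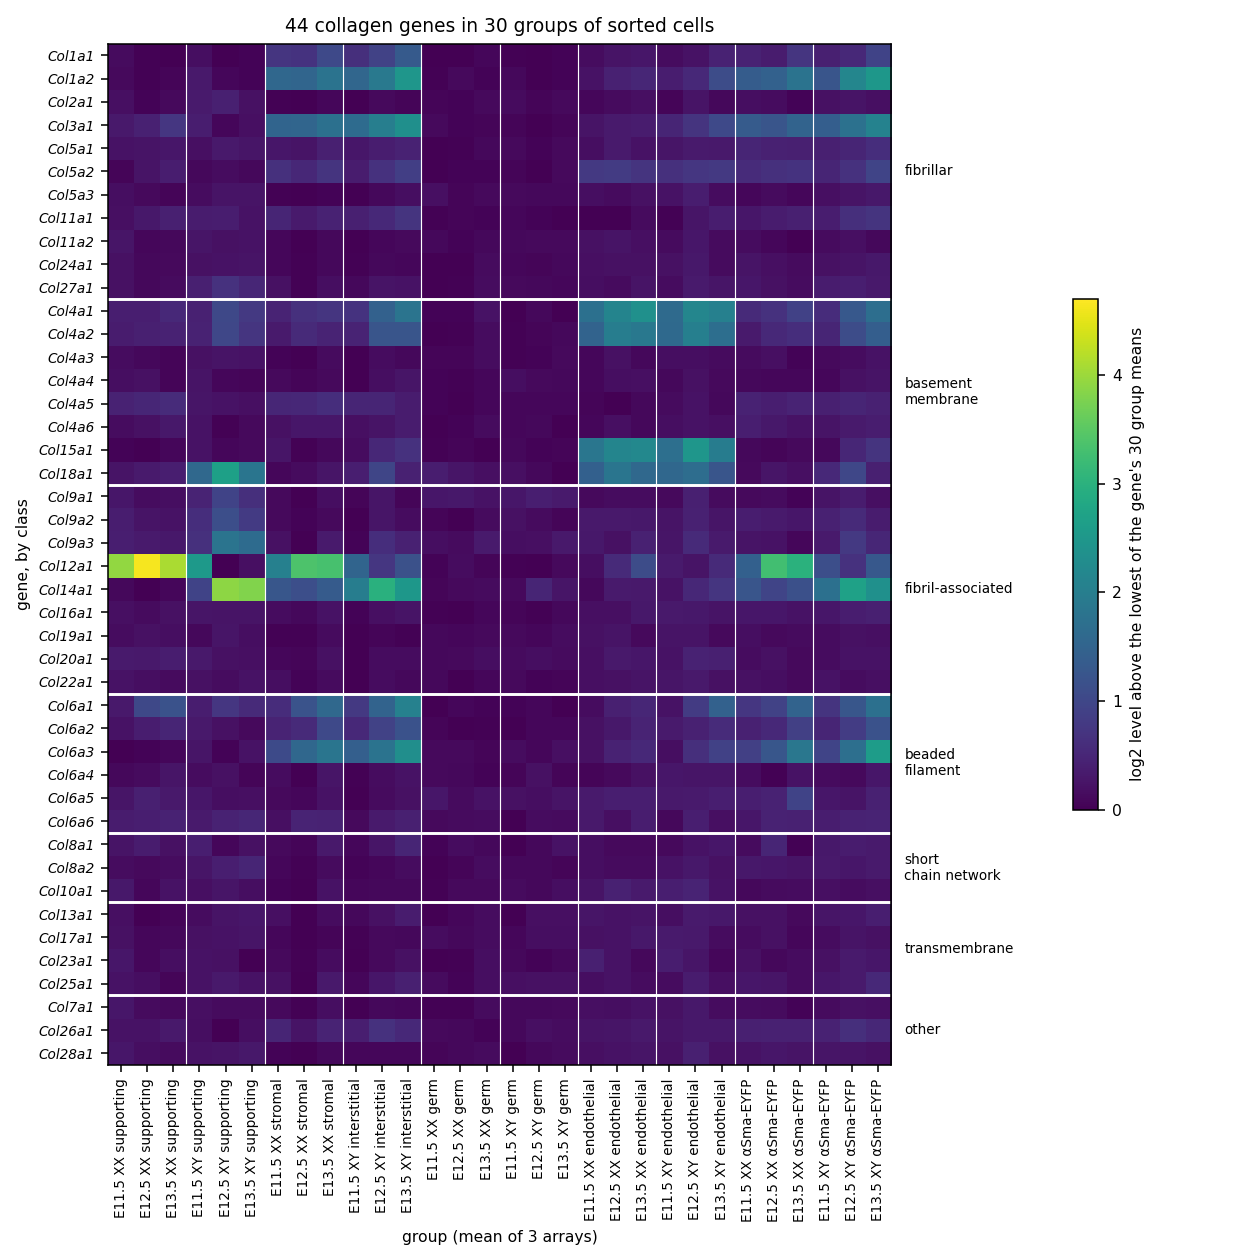
Each row is a collagen gene, grouped by class, and each column a group of sorted cells (mean of 3 arrays). Colour gives the log2 level above the gene's lowest group mean, and the bright cells (high) gather in *Col12a1*, *Col14a1*, the type I, III and VI genes of interstitial and stromal cells and the type IV, XV and XVIII genes of endothelial cells, with *Col18a1* also bright in XY supporting cells, while the germ cell columns stay dark (low).

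By lineage, averaged over the 3 stages, collagens were counted that were higher in a sorted population than in each of the other 3 lineages of its sex. In XX endothelial cells 4 of 44 were higher (background 4.78%), all of them basement membrane genes (*Col4a1*, *Col4a2*, *Col15a1* and *Col18a1*). In XY endothelial cells 3 were (background 3.86%), the same genes less *Col18a1*. XX stromal cells had 4 (background 1.42%), namely *Col1a2*, *Col3a1*, *Col6a3* and *Col14a1*, and XY interstitial cells had 5 (background 2.32%), namely *Col1a1*, *Col1a2*, *Col3a1*, *Col6a1* and *Col6a3*. The call on *Col6a1* was lost without E11.5 or E13.5 XY interstitial replicate 3 and under renewed quantile normalization. Supporting cells had 1 gene in each sex, *Col12a1* in XX (background 2.26%) and *Col9a3* in XY (background 3.30%). That share, 2.27% of the 44, was near the background in XX and below it in XY. These comparisons within a sex share arrays with each other.

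Germ cells had no collagen above the other lineages, in XX (background 10.1%) or in XY (background 9.78%), with limma and equally at an unadjusted p under 0.05 with the fold limit. Every one of the 44 genes stayed within 1.5-fold over the 6 germ cell groups, the widest range being 0.44 for *Col14a1*. Lower in germ cells than in each other lineage were 0 collagens in XX (background 5.88%, also 0 at an unadjusted p with the fold limit) and 2 in XY (background 6.37%), *Col4a1* and *Col4a2*. Without a fold limit these counts were 10 in XX and 7 in XY, for which the backgrounds above do not serve, as they hold the fold limit. *Col1a2* gives an example of the steady germ cell level, with group means of 7.16, 7.23 and 7.17 over the stages in XX and 7.22, 7.12 and 7.16 in XY.

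Among the fibrillar genes, *Col1a1* and *Col1a2*, the chains of type I collagen, and *Col3a1*, the chain of type III collagen that forms mixed fibrils with it, followed the interstitial and stromal cells. Promoters of this class are shown here because the genes move together: *Col1a2* and *Col3a1* had a Pearson r of 0.97 over the 30 group means and *Col1a1* and *Col1a2* one of 0.94, points that share arrays and normalization. The 250 bases before the annotated start, from RefSeq on build GRCm38.p6, are chr6:4505368-4505617 (plus strand) for *Col1a2* and chr1:45311288-45311537 (plus strand) for *Col3a1*, and capitals mark the motifs named after them.
Col1a2: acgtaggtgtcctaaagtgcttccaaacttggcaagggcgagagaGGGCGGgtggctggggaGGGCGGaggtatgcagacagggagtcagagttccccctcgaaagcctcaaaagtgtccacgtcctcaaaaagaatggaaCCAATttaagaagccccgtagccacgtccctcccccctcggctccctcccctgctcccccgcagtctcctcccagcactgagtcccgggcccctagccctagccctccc
Col3a1: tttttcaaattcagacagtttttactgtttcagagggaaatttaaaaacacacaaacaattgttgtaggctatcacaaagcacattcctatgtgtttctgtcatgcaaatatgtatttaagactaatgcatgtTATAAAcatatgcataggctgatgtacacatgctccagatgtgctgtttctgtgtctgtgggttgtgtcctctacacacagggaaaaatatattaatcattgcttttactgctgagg
The *Col1a2* stretch holds 2 GGGCGG (a GC box, the letters bound by Sp family factors) and 1 CCAAT, and the *Col3a1* stretch holds 1 TATAAA and none of the other motifs, so the motifs found in the windows differ. Both strands were searched, the other one for CCGCCC in the case of the GC box. The GC box lay in 22 of 38 promoters (57.9%) of the 35 collagen genes that matched the RefSeq table, against 32.7% of 32851 promoters in all. CCAAT, read as ATTGG on the other strand, lay in 34.2% against 33.8%. TATAAA, read as TTTATA on the other strand, lay in 13.2% against 12.4%. These are matches of letters, not sites of binding.

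*Col1a2* was the most variable fibrillar gene. Its 3 arrays read 8.80, 8.92 and 8.35 in E11.5 XX stromal cells, 8.46, 8.33 and 9.19 at E12.5 and 9.07, 8.57 and 9.10 at E13.5. In XY interstitial cells *Col1a2* read 8.47, 8.52 and 9.02, then 9.13, 9.14 and 8.80, then 9.40, 9.81 and 9.58. All 18 of these arrays lay above every supporting and germ cell array, of which the highest was 7.57. Over the stages, the difference of *Col1a2* in XX supporting minus stromal cells was -1.56 ± 0.12 (SE, 2.95-fold, limma adjusted p = 1.2e-15), and in XY supporting minus interstitial cells it was -1.83 ± 0.12 (3.55-fold, limma adjusted p = 2.1e-18). It rose by 0.93 ± 0.21 from E11.5 to E13.5 in XY interstitial cells (limma adjusted p = 0.0021), and at E13.5 it was 0.69 ± 0.21 higher in XY interstitial than in XX stromal cells (1.61-fold, limma adjusted p = 0.032), with no overlap of the 3 arrays. That sex call was lost without XX replicate 2 (0.52), XY replicate 2 (0.58) or XY replicate 3, and with the replicate numbers as a block.

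*Col3a1* was also highest in these cells. It read 8.61, 8.76 and 8.58 in E11.5 XX stromal cells and 8.88, 8.58 and 9.14 at E13.5, and in XY interstitial cells 8.56, 8.73 and 9.04 at E11.5 and 9.40, 9.72 and 9.34 at E13.5. The E13.5 XY arrays all exceeded the E13.5 XX arrays, whereas the E11.5 arrays of the sexes overlapped. *Col3a1* was 1.28 ± 0.11 higher in XX stromal than in XX endothelial cells (2.43-fold, limma adjusted p = 2e-15) and 1.25 ± 0.11 higher in XY interstitial than in XY endothelial cells (2.39-fold, limma adjusted p = 5.8e-15). The E13.5 sex difference of *Col3a1* was 0.62 ± 0.18 in interstitial and stromal cells (1.54-fold, limma adjusted p = 0.02) and was lost without XX replicate 1, XX replicate 2 (0.48) or XY replicate 2 (0.50), and with the block. Leydig markers were higher in the same XY sorts (list means of 5.86, 8.20 and 9.83 over the stages), and their part in these rises and sex differences was not tested. In supporting cells *Col3a1* went the other way at E13.5, 7.92, 7.68 and 8.05 in XX against 7.29, 7.34 and 7.35 in XY, a difference of -0.56 that missed the fold limit.

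*Col1a1* spanned less, from a lowest to a highest group mean 1.33 apart. In XY interstitial cells *Col1a1* read 8.22, 8.21 and 8.55 at E11.5, 8.72, 8.67 and 8.45 at E12.5 and 8.93, 9.10 and 9.05 at E13.5, all E13.5 arrays lying above all earlier ones. The rise was 0.70 ± 0.12 (limma adjusted p = 2e-05). In XX stromal cells *Col1a1* read 8.23, 8.78 and 8.23 at E11.5 and 8.80, 8.61 and 8.78 at E13.5, which overlap. Over the stages, the difference of *Col1a1* in XY supporting minus interstitial cells was -0.89 ± 0.07 (1.85-fold, limma adjusted p = 3.4e-16). In XX the difference between stromal and endothelial cells, 0.58 ± 0.07, lay just under the fold limit and was not called. The other 8 fibrillar genes were called in none of the 39 comparisons. Among them *Col5a2*, a minor chain that helps to start fibrils and a chromosomal neighbour of *Col3a1*, ranged from 6.31 in E11.5 XX germ cells to 7.28 in E13.5 XY *αSma-EYFP* cells and correlated with *Col3a1* with an r of 0.69 over the group means.

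The type VI genes, whose chains build beaded microfilaments around cells, shared the stromal pattern but also rose in other lineages with stage. *Col6a3*, the largest chain, read 7.55, 7.57 and 7.20 in E11.5 XX stromal cells and 8.13, 7.88 and 8.65 at E13.5, and 7.77, 8.15 and 7.52 in XY interstitial cells at E11.5 and 8.24, 9.08 and 8.84 at E13.5. In each sex the later arrays lay above the earlier ones without overlap, while supporting and germ cell arrays stayed between 6.20 and 6.81. *Col6a3* rose by 0.78 ± 0.20 in XX stromal cells (1.72-fold, limma adjusted p = 0.01), a call lost without E11.5 replicate 3 (0.66) or E13.5 replicate 3 (0.56), and by 0.91 ± 0.20 in XY interstitial cells (limma adjusted p = 0.0016). The difference in XX supporting minus stromal cells was -1.44 ± 0.12 (2.72-fold, limma adjusted p = 3.9e-15) and in XY supporting minus interstitial cells -1.67 ± 0.12 (3.18-fold, limma adjusted p = 1.2e-17).

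*Col6a1* was called as rising from E11.5 to E13.5 in 6 of the 10 series of a lineage and sex, more than any other collagen. It read 7.48, 7.62 and 7.45 in E11.5 XX supporting cells and 8.51, 8.08 and 8.54 at E13.5, a rise of 0.86 ± 0.13 (1.82-fold, limma adjusted p = 7.2e-07), and was the collagen called in that comparison. In XX stromal cells *Col6a1* rose by 1.00 ± 0.13 (2.01-fold, limma adjusted p = 6.6e-08), and in XY interstitial cells by 1.29 ± 0.13 (2.44-fold, limma adjusted p = 2.2e-11), from 7.87, 7.87 and 8.16 to 9.16, 9.17 and 9.43. In XY supporting cells the E13.5 arrays of *Col6a1* read 7.74, 7.87 and 7.65, all below the XX arrays of that stage, and the sex difference was -0.63 ± 0.13 (1.54-fold, limma adjusted p = 9.2e-05). That call was lost without XX replicate 1, XX replicate 3 or XY replicate 3. *Col6a2*, described here as the partner chain after its values were seen, correlated with both *Col6a1* and *Col6a3* with an r of 0.93 over the 30 group means and rose by 0.64 ± 0.13 in XY interstitial cells (limma adjusted p = 0.00035), a call lost without E13.5 replicate 3 (0.56).

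**Figure D2:**
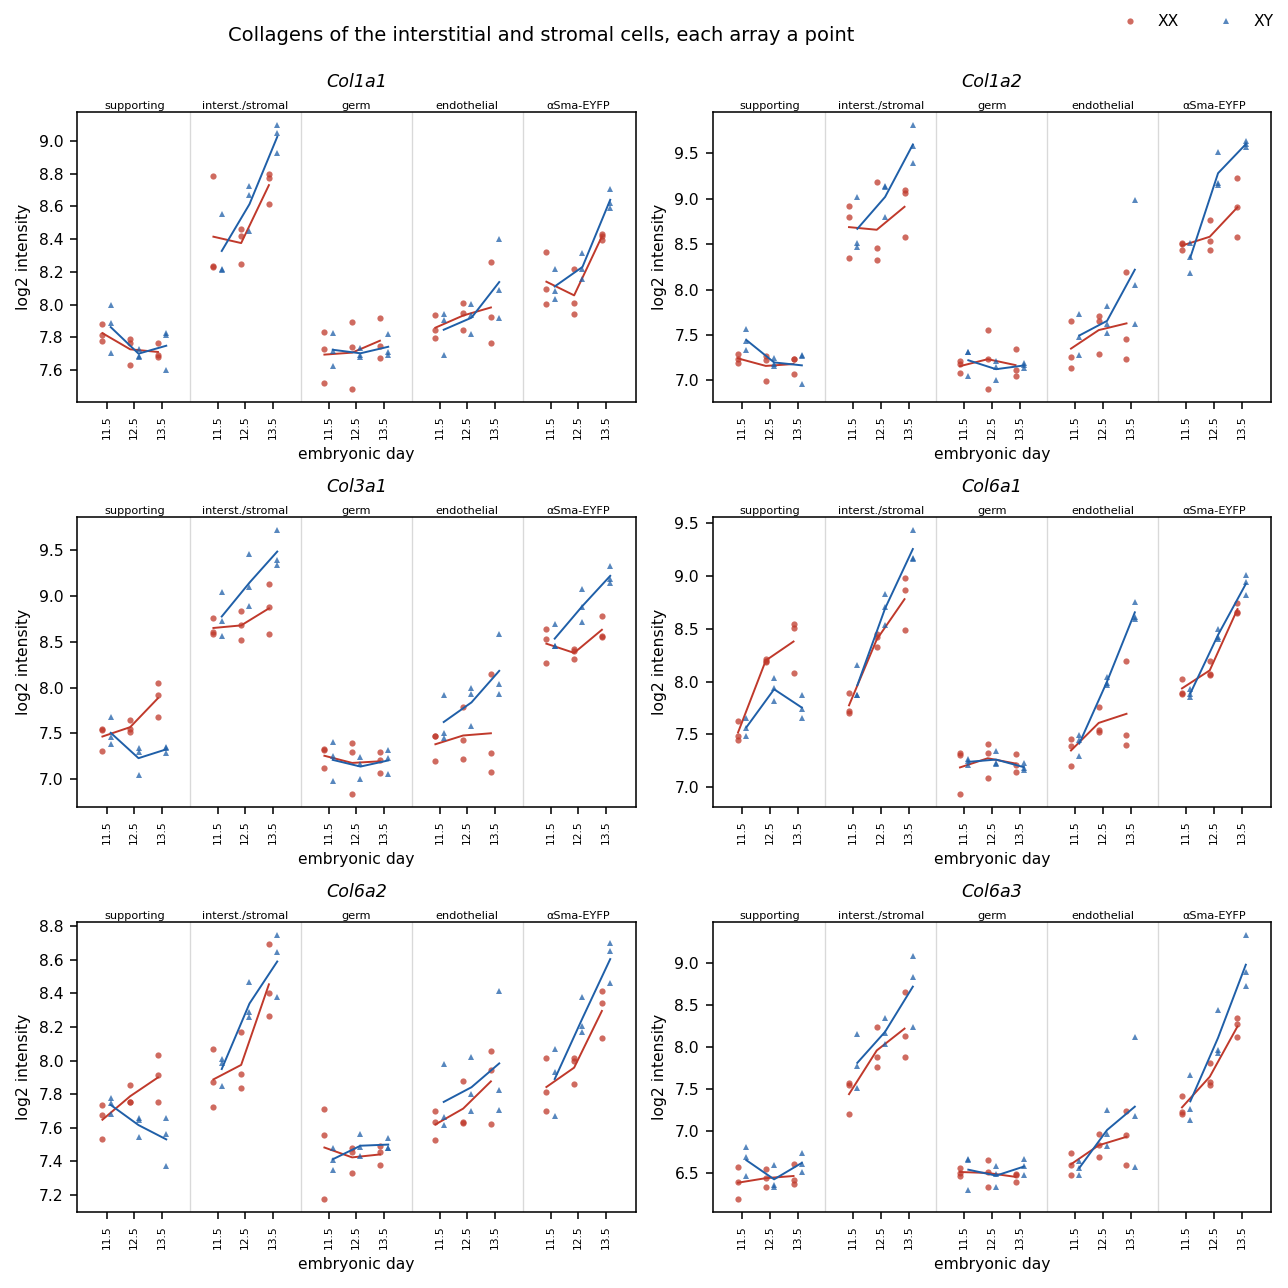
Each panel is a gene of type I, III or VI collagen, with log2 intensity against embryonic day in each sorted lineage. Points are single arrays (XX circles, XY triangles) and lines join the means of 3. The interstitial, stromal and αSma-EYFP arrays lie above the supporting and germ cell arrays for *Col1a2*, *Col3a1* and *Col6a3*, and *Col6a1* also climbs in XX supporting and XY endothelial cells.

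The basement membrane genes were led by endothelial cells. *Col4a1* and *Col4a2*, which encode the chains of the common type IV heterotrimer and lie side by side on the chromosome, had an r of 0.98 over the 30 group means (0.97 over 90 arrays), the highest of the chain pairs examined. *Col4a1* read 9.01, 8.95 and 9.49 in E11.5 XX endothelial cells, 9.41, 9.60 and 9.60 at E12.5 and 9.56, 10.21 and 9.57 at E13.5, and in XY 8.92, 8.95 and 9.25, then 9.20, 10.00 and 9.56, then 9.20, 9.60 and 9.61. All XX endothelial arrays of *Col4a1* exceeded all other XX arrays, whereas in XY the interstitial arrays of E13.5 (8.88, 9.56 and 9.26) overlapped the endothelial ones. The difference of *Col4a1* in XX supporting minus endothelial cells was -1.62 ± 0.09 (3.07-fold, limma adjusted p = 3.1e-23). XY interstitial minus endothelial cells differed by -0.63 ± 0.09 for *Col4a1* (1.54-fold, limma adjusted p = 1.9e-08), a call lost without E12.5 XY endothelial replicate 2 or E13.5 XY interstitial replicate 1, and by -0.79 ± 0.07 for *Col4a2* (1.73-fold, limma adjusted p = 1e-14). From E11.5 to E13.5 *Col4a1* rose by 0.63 ± 0.15 in XX endothelial cells (limma adjusted p = 0.0058), a call lost without E11.5 replicate 1, E11.5 replicate 2 or E13.5 replicate 2.

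In interstitial and stromal cells the type IV pair was higher in XY at E12.5 and E13.5. *Col4a1* read 8.84, 8.94 and 8.85 in E12.5 XY interstitial cells against 7.86, 8.02 and 8.34 in XX stromal cells, and 8.88, 9.56 and 9.26 against 8.15, 8.16 and 8.13 at E13.5. The sexes did not overlap at either stage, and the differences were 0.81 ± 0.15 (1.75-fold, limma adjusted p = 0.0001) and 1.09 ± 0.15 (2.12-fold, limma adjusted p = 1.6e-07). *Col4a2* differed by 0.68 ± 0.12 (1.6-fold, limma adjusted p = 2.7e-05) and 0.78 ± 0.12 (1.71-fold, limma adjusted p = 1.3e-06). In XY interstitial cells from E11.5 to E13.5 *Col4a1* rose by 1.13 ± 0.15 (limma adjusted p = 7.2e-08) and *Col4a2* by 0.77 ± 0.12 (limma adjusted p = 1.9e-06).

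In supporting cells the pair passed the limits at E12.5 alone. *Col4a1* read 8.41, 8.41 and 8.50 in XY against 7.79, 7.75 and 7.93 in XX, a difference of 0.62 ± 0.15 (1.54-fold, limma adjusted p = 0.00088). *Col4a2* read 8.17, 8.23 and 8.22 against 7.53, 7.73 and 7.59, a difference of 0.59 ± 0.12 (1.51-fold, limma adjusted p = 5.7e-05). Neither overlapped, but both sit just above the fold limit and were lost without 1 of several arrays (XX replicate 2 for *Col4a1*, and XX replicate 1, XX replicate 3 or XY replicate 2 for *Col4a2*). The remaining type IV genes hardly moved. *Col4a3*, *Col4a4* and *Col4a6*, chains of specialised basement membranes such as those of the kidney, stayed within 1.5-fold in all groups, and *Col4a5* spanned 0.62, from 6.58 in E12.5 XX germ cells to 7.20 in E13.5 XX stromal cells. The neighbours *Col4a5* and *Col4a6* had an r of 0.73 and the neighbours *Col4a3* and *Col4a4* one of 0.37 over the group means.

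*Col15a1*, a basement membrane proteoglycan core found around vessels, separated endothelial cells from every other lineage without overlap. It read 8.63, 8.74 and 8.52 in E11.5 XX endothelial cells, 8.75, 8.79 and 9.22 at E12.5 and 8.88, 9.23 and 8.81 at E13.5, and its lowest XY endothelial array was 8.12. The highest sorted array of another lineage read 7.61. The difference of *Col15a1* in XX supporting minus endothelial cells was -2.02 ± 0.07 (4.05-fold, limma adjusted p = 1.4e-32) and in XY interstitial minus endothelial cells -1.60 ± 0.07 (3.03-fold, limma adjusted p = 1.7e-27). In XY interstitial cells it read 7.04, 6.94 and 6.81 at E11.5 and 7.37, 7.45 and 7.54 at E13.5, and in XX stromal cells 6.84, 6.84 and 6.96 at E13.5. The sex difference of *Col15a1* in E13.5 interstitial and stromal cells, 0.57, missed the fold limit.

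**Figure D3:**
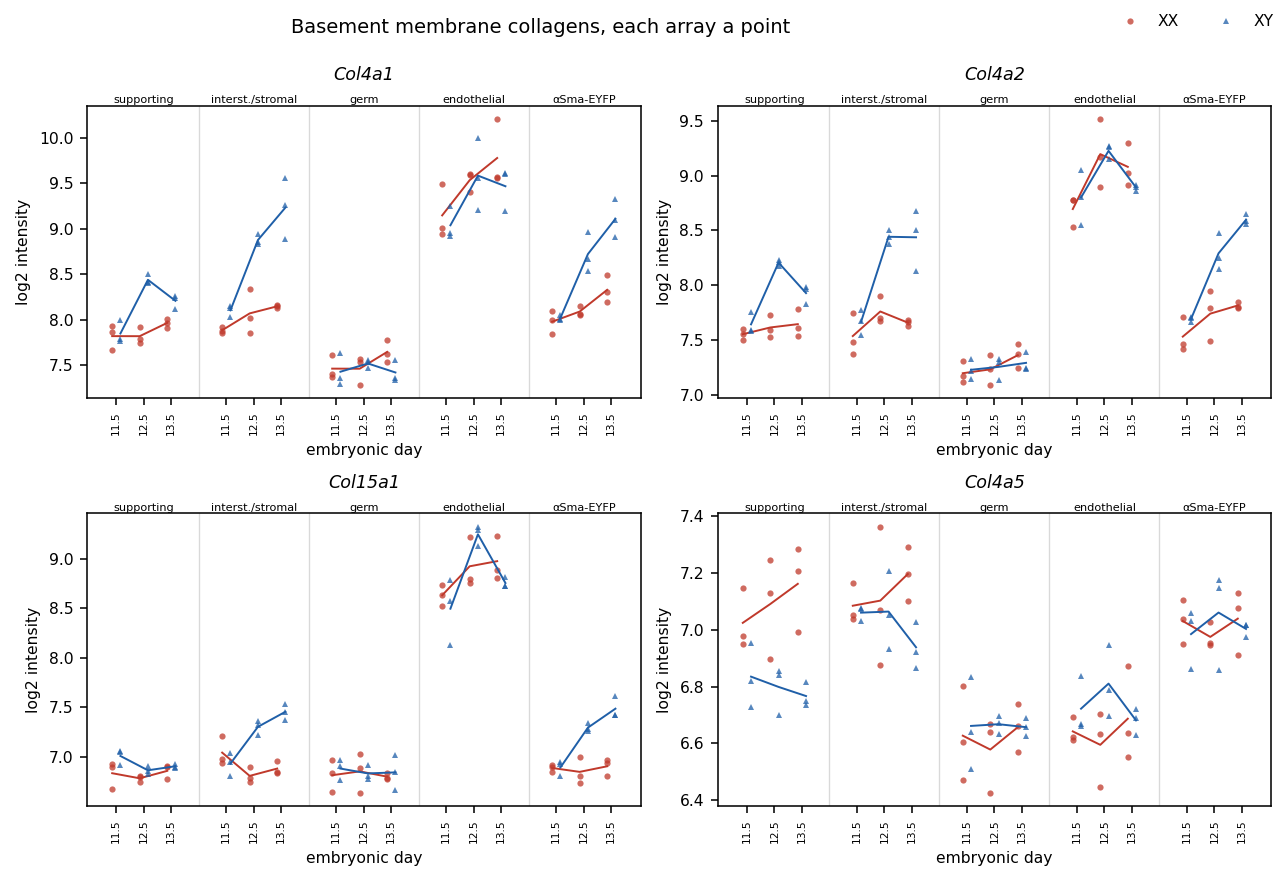
Log2 intensity of the type IV genes *Col4a1*, *Col4a2* and *Col4a5* and of *Col15a1* against embryonic day in each sorted lineage. Points are single arrays (XX circles, XY triangles) and lines join the means of 3. Endothelial arrays are highest for *Col4a1*, *Col4a2* and *Col15a1*, XY interstitial and XY αSma-EYFP cells climb above XX after E11.5, and *Col4a5* stays between 6.4 and 7.4.

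*Col18a1*, the other vessel-associated multiplexin and the source of the fragment endostatin, was shared between endothelial cells and XY supporting cells. In endothelial cells it read 8.69, 8.65 and 8.89 at E11.5 XX and 8.66, 8.77 and 9.20 at E11.5 XY. In XY supporting cells *Col18a1* read 9.17, 8.95 and 8.56 at E11.5, 9.74, 9.93 and 10.24 at E12.5 and 9.14, 9.16 and 9.12 at E13.5, whereas all 9 XX supporting arrays lay between 7.47 and 7.83. The sex difference was present at E11.5, 1.34 ± 0.17 (2.53-fold, limma adjusted p = 2.5e-08), and was 2.33 ± 0.17 at E12.5 (5.03-fold, limma adjusted p = 5.7e-17) and 1.44 ± 0.17 at E13.5 (2.71-fold, limma adjusted p = 5.9e-10). The XY level fell by 0.83 ± 0.17 from E12.5 to E13.5 (limma adjusted p = 0.0016).

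The largest sex differences in supporting cells were those of *Col12a1* and *Col14a1*, whose products are fibril-associated and attach to the surface of larger fibrils. Of the 44 collagens, 2 were higher in XY at E11.5 (background 3.65%), 7 at E12.5 (background 9.59%) and 3 at E13.5 (background 8.60%). In XX, 1 was higher at E11.5 (background 2.51%), 1 at E12.5 (background 7.0%) and 2 at E13.5 (background 7.45%). The share of the 44 lay below the background in XX at each stage and in XY at E13.5. No fibrillar gene was among those called. The median difference over the 44 genes was 0.08 at E12.5 against -0.00 over all tested clusters.

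*Col12a1*, a fibril-associated collagen of dense and stressed connective tissue, was the most sex-biased collagen and the one higher in XX at every stage. In XX supporting cells it read 9.97, 9.88 and 10.02 at E11.5, 10.53, 10.80 and 10.62 at E12.5 and 10.03, 10.23 and 10.12 at E13.5. In XY supporting cells *Col12a1* read 7.74, 8.73 and 9.17 at E11.5, 6.10, 5.95 and 6.00 at E12.5 and 6.31, 6.08 and 6.22 at E13.5. The XY cells thus began between the XX supporting and the germ cell levels, with wide spread, and then lay near the germ cell group means of 6.02 to 6.18. The difference was -1.41 ± 0.20 at E11.5 (2.65-fold, limma adjusted p = 6.5e-07), -4.63 ± 0.20 at E12.5 (at least 24.8-fold, limma adjusted p = 1.4e-25) and -3.92 ± 0.20 at E13.5 (at least 15.2-fold, limma adjusted p = 9.3e-23). Since the XY arrays at E12.5 and E13.5 lay near the filter level of 6, below the array medians, the folds at these stages are read as lower bounds. From E11.5 to E13.5 *Col12a1* fell by 2.35 ± 0.20 in XY (5.08-fold, limma adjusted p = 1.1e-13).

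*Col14a1*, the related fibril-associated collagen, ran the opposite course. It read 6.93, 6.77 and 6.67 in E11.5 XX supporting cells, 6.49, 6.65 and 6.95 at E12.5 and 6.74, 6.72 and 6.85 at E13.5. In XY supporting cells *Col14a1* read 7.71, 7.79 and 7.42 at E11.5, then 10.40, 10.80 and 10.57, then 10.40, 10.63 and 10.48. The sexes did not overlap at any stage, and the difference grew from 0.85 ± 0.21 (1.8-fold, limma adjusted p = 0.0026) to 3.89 ± 0.21 at E12.5 (14.9-fold, limma adjusted p = 1.4e-22) and 3.73 ± 0.21 at E13.5 (13.3-fold, limma adjusted p = 8.7e-22). Markers of other cells moved in the same sorts. At E13.5 all 5 Leydig markers were called higher in XY supporting cells (list means of 8.01 against 5.72), and the interstitial markers *Nr2f2* and *Nr2f1* were called higher in XX at E11.5 and E12.5. Another interstitial marker, *Pdgfra*, was called higher in XY at E11.5. From E11.5 to E13.5 in XY, 4 of 5 Leydig markers rose and 3 of 4 interstitial markers fell. Their part in the supporting cell differences of collagens was not tested. The rise of *Col14a1* within XY from E11.5 to E13.5 was 2.86 ± 0.21 (7.27-fold, limma adjusted p = 1e-16). Over all 30 group means *Col12a1* and *Col14a1* had an r of -0.16.

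The type IX genes, partners of cartilage fibrils, were higher in XY supporting cells at E12.5. *Col9a3* read 8.79, 8.47 and 8.29 at E11.5 in XY, then 9.55, 9.84 and 9.63, then 9.47, 9.79 and 9.25, and every XX supporting array lay between 8.05 and 8.34. The sex difference of *Col9a3* was 1.47 ± 0.14 at E12.5 (2.76-fold, limma adjusted p = 3e-13) and 1.34 ± 0.14 at E13.5 (2.53-fold, limma adjusted p = 6.2e-12). *Col9a2* read 8.99, 8.94 and 8.93 in E12.5 XY against 8.09, 8.00 and 8.14 in XX, a difference of 0.87 ± 0.11 (1.83-fold, limma adjusted p = 3.6e-09), and *Col9a1* read 7.46, 7.89 and 7.52 against 6.65, 6.89 and 6.93, a difference of 0.80 ± 0.10 (1.74-fold, limma adjusted p = 5.8e-09). The 3 chains had pairwise r of 0.76 to 0.88 over the group means. *Col2a1*, the cartilage fibril that type IX coats, stayed within 1.5-fold in all groups, and the mean of 7 chondrocyte markers lay between 5.82 and 6.70 in every sorted group. The *Col2a1* cluster read 8.22 on the newborn array against a highest sorted group mean of 7.95, so how far it responds to expression is not shown. Of the 5 chondrocyte markers tested, 1 (*Sox6*) was called higher in XY supporting cells at each stage, and its part in the type IX differences was not tested.

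**Figure D4:**
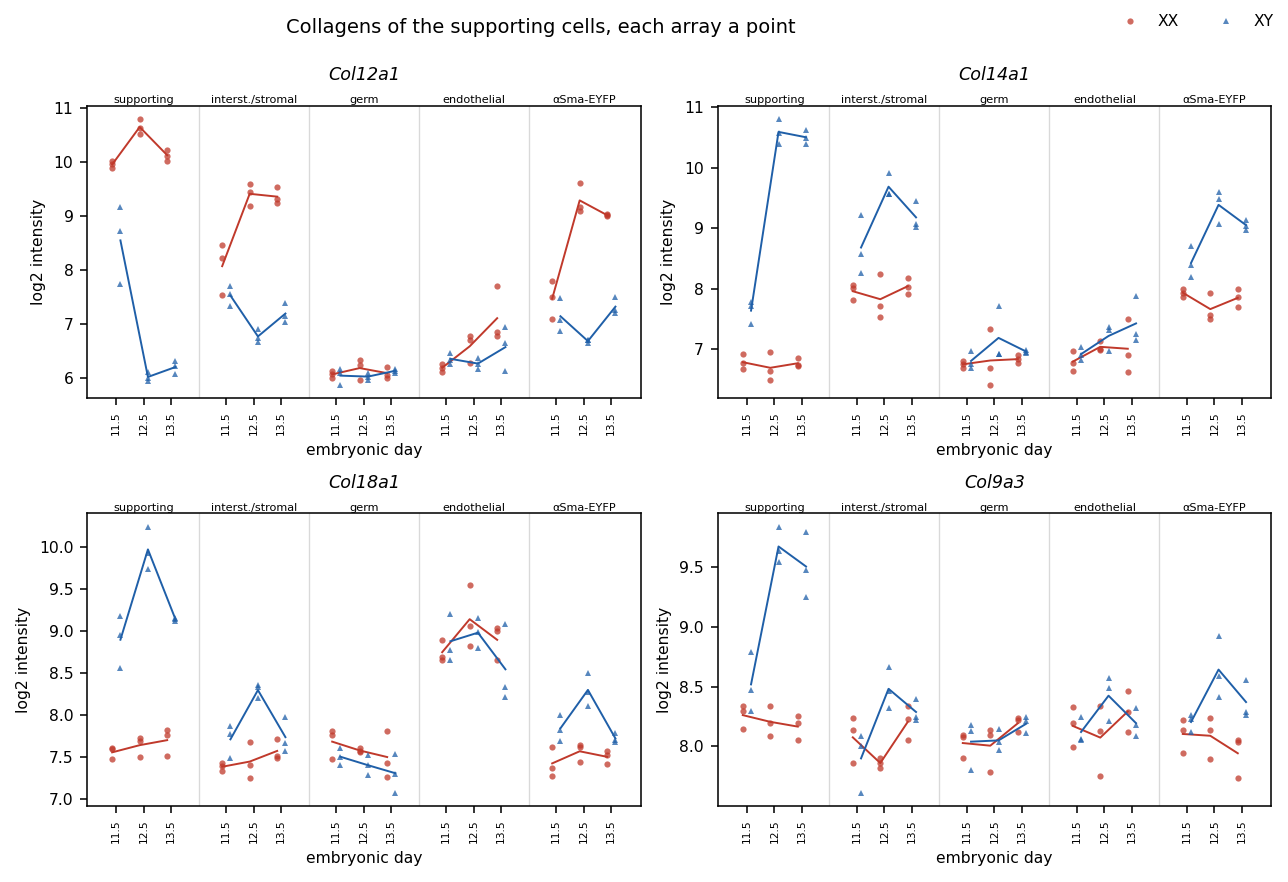
Log2 intensity of *Col12a1*, *Col14a1*, *Col18a1* and *Col9a3* against embryonic day in each sorted lineage. Points are single arrays (XX circles, XY triangles) and lines join the means of 3. In supporting cells XX lies near 10 and XY near 6 for *Col12a1* after E11.5, and the order is the reverse for the other 3 genes.

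Interstitial and stromal cells also differed between the sexes in *Col12a1*, *Col14a1*, *Col18a1* and *Col9a3*. At E11.5 no collagen was called in either direction with limma (background 0.161% higher in XY and 0.0357% higher in XX), and 3 had an unadjusted p under 0.05, of which *Col14a1* (0.72) passed the fold limit. At E12.5, 5 were higher in XY (background 2.06%) and 1 in XX (background 2.07%), and at E13.5 the counts were 5 (background 3.45%) and 1 (background 2.25%). *Col12a1* read 9.60, 9.45 and 9.18 in E12.5 XX stromal cells against 6.67, 6.73 and 6.90 in XY interstitial cells, a difference of -2.64 ± 0.20 (6.24-fold, limma adjusted p = 6.2e-15), and the difference at E13.5 was -2.17 ± 0.20 (4.49-fold, limma adjusted p = 2.7e-12). *Col14a1* read 9.57, 9.57 and 9.92 in XY against 7.53, 7.71 and 8.25 in XX at E12.5, a difference of 1.86 ± 0.21 (3.62-fold, limma adjusted p = 7.2e-10), and the difference at E13.5 was 1.14 ± 0.21 (2.2-fold, limma adjusted p = 4.4e-05). *Col18a1* (0.85 ± 0.17, limma adjusted p = 0.00032) and *Col9a3* (0.62 ± 0.14, limma adjusted p = 0.0012) were higher in XY at E12.5 and not called at E13.5. The call on *Col9a3* was lost without XY replicate 3 (0.53).

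The markers of supporting cells moved in the same direction in these sorts. At E12.5 all 6 Sertoli markers were called higher in XY interstitial than in XX stromal cells, with list means of 9.17 to 9.40 on the XY arrays and 6.93 to 7.10 on the XX arrays. In the same comparison 4 of the 5 pre-granulosa markers were called higher in XX, with list means of 8.35 to 8.94 on the XX arrays and 7.0 to 7.08 on the XY arrays. At E13.5 the counts were 5 of 6 and 4 of 5. All 5 Leydig markers were called higher in XY at both stages. At E13.5 the endothelial markers *Cdh5* and *Emcn* (2 of 8) were also called higher in XY and *Kdr* lower, and the smooth muscle and pericyte markers *Acta2* and *Pdgfrb* (2 of 8) higher in XY. Their part in these sex differences of collagens, those of *Col4a1* and *Col4a2* included, was not tested.

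The supporting cell differences at E13.5 were set against those of interstitial and stromal cells in an interaction test, which called 3 collagens above (background 5.56%) and 4 below (background 5.54%). *Col14a1* (2.59, limma adjusted p = 7.8e-10), *Col18a1* (1.28, limma adjusted p = 6.9e-05) and *Col9a3* (1.26, limma adjusted p = 1.5e-06) were more XY-biased in supporting cells. *Col12a1* (-1.76, limma adjusted p = 6e-06) was more XX-biased in supporting cells. *Col4a1* (-0.84, limma adjusted p = 0.0032) was more XY-biased in interstitial cells, and *Col3a1* (-1.18, limma adjusted p = 0.00066) and *Col6a1* (-1.10, limma adjusted p = 6.2e-06) had negative interactions too, with supporting differences of -0.56 (not called) and -0.63 and interstitial differences of 0.62 and 0.47 (not called), in that order.

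**Figure D5:**
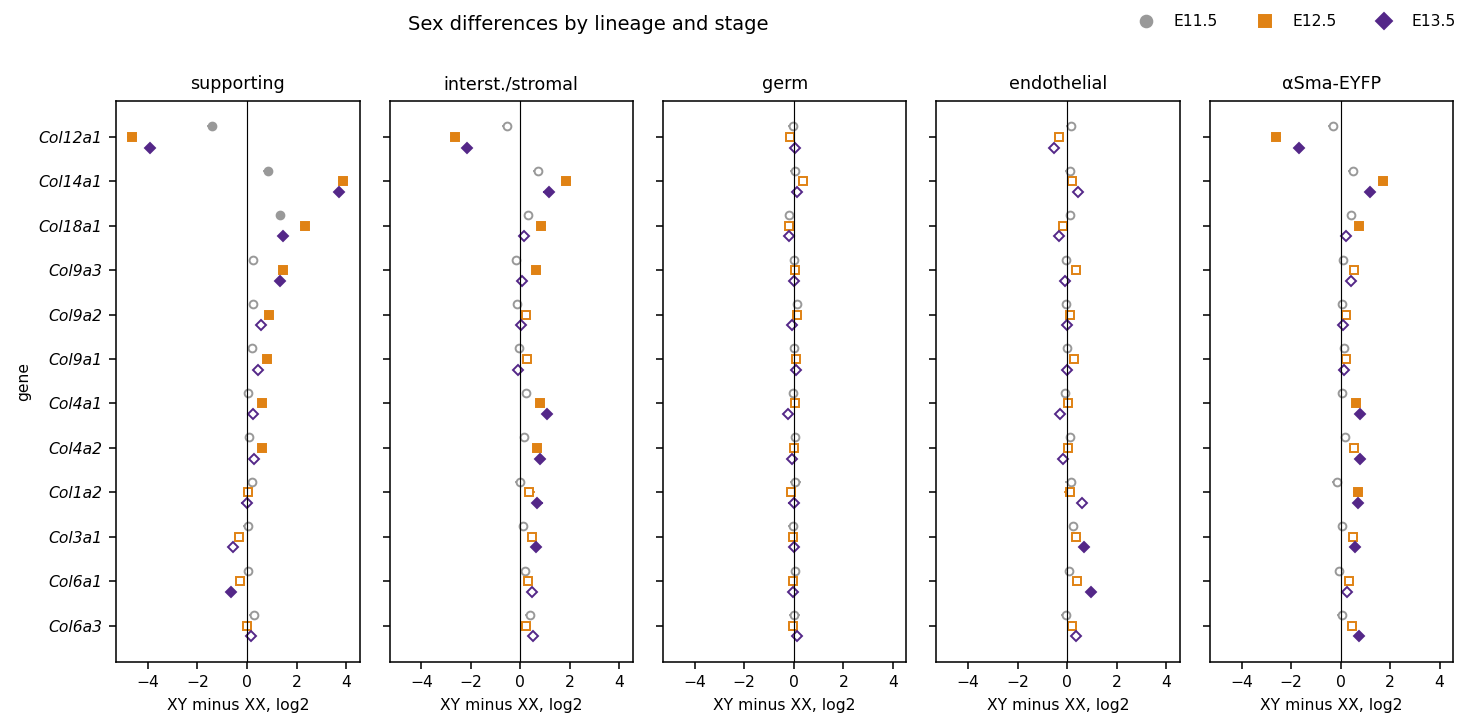
XY minus XX difference in log2 intensity for collagens, 1 panel per lineage, with 1 symbol per stage. Filled symbols were called, open ones were not, and bars are standard errors, most of them within the symbol. *Col12a1* lies far to the left and *Col14a1* far to the right in supporting, interstitial and stromal and αSma-EYFP cells, and germ cell symbols stay within 0.37 of 0.

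In endothelial cells sex differences of collagens were few. No collagen was called at E11.5 (background 0.107% higher in XY and 0.482% higher in XX) or E12.5 (background 1.44% and 0.416%) with limma, and 1 and 7 had an unadjusted p under 0.05, none of them past the fold limit. At E13.5, 2 were higher in XY (background 2.68%) and 0 in XX (background 0.850%). *Col6a1* read 8.60, 8.75 and 8.61 in XY against 7.49, 7.40 and 8.19 in XX, a difference of 0.96 ± 0.13 without overlap (1.95-fold, limma adjusted p = 1.1e-07). *Col3a1* read 8.04, 8.59 and 7.93 in XY against 7.28, 7.08 and 8.15 in XX, a difference of 0.68 ± 0.18 (1.6-fold, limma adjusted p = 0.014) with overlap, lost without XX replicate 1, XX replicate 2 or XY replicate 2. In the same comparison all 5 Leydig markers were called higher in XY. The 4 measured interstitial markers averaged 7.48 to 9.21 on the XY arrays and 7.41 to 8.08 on the XX arrays, with *Pdgfra* called. The endothelial markers *Tie1* and *Robo4* (2 of 8) and the pre-granulosa markers *Fst* and *Irx3* (2 of 5) were called lower in XY. Called higher in XY were also *Acta2*, the Sertoli marker *Aard*, the germ cell marker *Dppa3* and the red blood markers *Hba-x* and *Hbb-bh1*. Their part in these differences was not tested.

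The E13.5 endothelial arrays also differed among themselves for stromal collagens. XX replicate 3 read 8.19 for *Col1a2*, 8.15 for *Col3a1* and 7.69 for *Col12a1*, where the other XX arrays read 7.46 and 7.23, 7.28 and 7.08, and 6.78 and 6.85. XY replicate 2 read 8.98 for *Col1a2* and 8.12 for *Col6a3*, where the other XY arrays read 8.05 and 7.62, and 7.18 and 6.58. Over the stages 3 collagens were called as rising in XY endothelial cells (background 5.08%), namely *Col6a1* (1.24 ± 0.13), *Col6a3* (0.73 ± 0.20) and *Col1a2* (0.72 ± 0.21). Without E13.5 XY replicate 2, the call on *Col1a2* (0.34) and that on *Col6a3* (0.32) were lost. Each was also lost without E11.5 XY replicate 2, and that on *Col1a2* without E11.5 XY replicate 1. The study describes an E11.5 XY endothelial array, of unstated replicate number, as somewhat of an outlier in clustering with a low amplification yield. In XX endothelial cells 2 rose (background 1.30%), *Col12a1* (0.92 ± 0.20) and *Col4a1*, and that of *Col12a1* was lost without E13.5 XX replicate 3. Leydig markers (5 of 5) rose in XY endothelial cells, with 2 of 4 interstitial markers (*Pdgfra* and *Tcf21*) and 2 of 8 smooth muscle and pericyte markers (*Acta2* and *Pdgfrb*), and 1 of 5 pre-granulosa markers rose in XX endothelial cells. The interstitial marker *Nr2f1* fell in both sexes. The germ cell markers *Dazl*, *Ddx4* and *Dppa3* (3 of 6) rose in both sexes. Their part was not tested. The interaction of endothelial against interstitial and stromal cells at E13.5 called 1 collagen above (background 1.77%) and 3 below (background 1.56%). For *Col4a1* it was -1.40 (limma adjusted p = 8.4e-06), for *Col4a2* -0.96 (limma adjusted p = 7e-05) and for *Col15a1* -0.79 (limma adjusted p = 0.001), all with the XY excess in interstitial cells, and for *Col12a1* it was 1.63 (limma adjusted p = 0.00011).

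Germ cells of the sexes did not differ in a collagen by this test at E11.5 (background 0.0654% in each direction), E12.5 (background 0.892% higher in XY and 1.77% higher in XX) or E13.5 (background 5.72% and 6.07%), and at no stage did 1 have an unadjusted p under 0.05. The largest difference was 0.37 for *Col14a1* at E12.5, where replicate 3 read 7.71 in XY and 7.34 in XX against 6.41 to 6.93 on the other 4 arrays. Same-numbered germ cell arrays of the sexes deviated together at E12.5, and this comparison did not use that pairing. From E11.5 to E13.5 no collagen was called in XX germ cells (background 7.94% rose and 6.95% fell) or in XY germ cells (background 5.08% and 4.54%), with 0 and 1 at an unadjusted p under 0.05.

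From E11.5 to E13.5, 8 of 44 rose in XY interstitial cells (background 2.77%) and 0 fell (background 2.12%), and the median change of the 44 was 0.18 against 0.01 over all tested clusters. Leydig markers also rose there (5 of 5 called), as did 4 of 6 Sertoli markers and 2 of 8 smooth muscle and pericyte markers (*Acta2* and *Pdgfrb*). In the same lists the Sertoli marker *Sox9* and the smooth muscle and pericyte marker *Rgs5* fell. The call on *Col3a1* was lost without E11.5 replicate 1 (0.60) or E13.5 replicate 2 (0.59). The rising collagens were the 3 genes of types I and III, the type IV pair and the 3 main type VI chains. In XX stromal cells 3 rose (background 1.88%) and 0 fell (background 2.12%), namely *Col12a1* (1.29 ± 0.20, limma adjusted p = 9.9e-06), *Col6a1* and *Col6a3*. In the same cells 2 of 5 pre-granulosa markers and the smooth muscle and pericyte marker *Myh11* rose. There 4 of 8 endothelial markers (*Cdh5*, *Pecam1*, *Tek* and *Emcn*) fell, as did *Cnn1* and *Rgs5* of the smooth muscle and pericyte list. *Cyp11a1* (Leydig), *Sox9* (Sertoli), *Nr2f1* (interstitial) and *Hapln1* (chondrocyte) fell too. The part of these markers in the rises was not tested. In XX supporting cells 1 rose (background 4.75%) and 0 fell (background 2.45%). In XY supporting cells 2 rose (background 7.68%), *Col14a1* and *Col9a3* (0.99 ± 0.14, limma adjusted p = 8e-08), and 1 fell (background 4.21%), *Col12a1*. None fell in XX or XY endothelial cells (background 1.17% and 1.77%).

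The *αSma-EYFP* sorts offered a further look at the mesenchyme with another reporter and strain, and supporting cell markers differed between the sexes here too. Sertoli markers averaged 7.79, 8.16 and 7.52 in XY against 6.87, 6.80 and 6.80 in XX, and pre-granulosa markers 7.85, 8.74 and 8.63 in XX against 7.47, 7.05 and 7.11 in XY. Their part in the differences below was not tested. At E11.5 no collagen was called between the sexes (background 0.214% higher in XY and 0.0178% higher in XX), with 2 at an unadjusted p under 0.05. At E12.5, 4 were higher in XY (background 1.72%) and 1 in XX (background 1.83%), and at E13.5 6 (background 1.61%) and 1 (background 2.19%). The XY calls on *Col1a2* at both stages and on *Col3a1* at E13.5 were lost under several leave-outs of 1 array. That on *Col4a1* at E12.5 was lost without XY replicate 2 (0.51). *Col12a1* read 9.09, 9.61 and 9.16 in E12.5 XX against 6.64, 6.71 and 6.70 in XY, a difference of -2.61 ± 0.20 (6.09-fold, limma adjusted p = 2.1e-16). *Col14a1* read 7.57, 7.50 and 7.92 in XX against 9.49, 9.60 and 9.07 in XY, a difference of 1.72 ± 0.20 (3.3-fold, limma adjusted p = 4.6e-10). At E13.5 *Col6a3* read 8.72, 8.89 and 9.33 in XY against 8.12, 8.27 and 8.35 in XX, a difference of 0.73 ± 0.20 (limma adjusted p = 0.013), lost without XX replicate 1 (0.67) or XY replicate 3 (0.56).

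With stage, 9 collagens rose in XY *αSma-EYFP* cells (background 2.80%) and 0 fell (background 3.17%), the largest rise being that of *Col6a3* from 7.27, 7.66 and 7.13 to 8.72, 8.89 and 9.33 (1.62 ± 0.20, 3.08-fold, limma adjusted p = 3.4e-09). The calls on *Col14a1* and *Col15a1* in this list were lost under several leave-outs of 1 array. In the same XY cells 4 of 5 Leydig markers, *Acta2*, *Pdgfrb* and the endothelial marker *Emcn* rose, while the smooth muscle and pericyte marker *Rgs5* fell. At E13.5 all 5 Leydig markers were called higher in XY than in XX. Their part was not tested. In XX *αSma-EYFP* cells 3 rose (background 2.23%) and 0 fell (background 1.71%), *Col12a1* (1.55 ± 0.20), *Col6a3* (0.96 ± 0.20) and *Col6a1* (0.75 ± 0.12). The pre-granulosa markers *Fst* and *Irx3* and the smooth muscle and pericyte marker *Myh11* rose in these XX cells. *Tagln*, *Cnn1* and *Rgs5* of the latter list fell, as did *Cyp11a1*, *Star*, *Sox9*, *Nr2f1* and *Hapln1* of other lists. The part of these markers in the 3 rises was not tested. Set against the interstitial or stromal cells of the same sex over the 3 stages, no collagen was called in XX (background 1.23% higher and 0.819% lower in *αSma-EYFP*) or in XY (background 0.872% and 0.890%) with limma, although 12 and 22 had an unadjusted p under 0.05. The largest differences were 0.45 for *Col6a5* in XX, from 6.80 to 7.25, and -0.33 for *Col1a1* in XY, from 8.66 to 8.33. The study describes the *αSma-EYFP* population as mixed, with supporting cells in it at E11.5.

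*Col6a5*, an alternative type VI chain described here after its values were seen, is a gene whose clusters disagreed. The cluster used for it had a mean of 7.59 in E13.5 XX *αSma-EYFP* cells. The other cluster of *Col6a5* read 6.27, 6.44 and 6.00 in E11.5 XX *αSma-EYFP* cells, 7.63, 7.34 and 7.40 at E12.5 and 8.59, 8.31 and 8.76 at E13.5, while the XY arrays lay between 6.00 and 6.56 at all stages. By that cluster the XY minus XX difference at E13.5 was -2.16 ± 0.17 (limma adjusted p = 4.2e-16) and *αSma-EYFP* exceeded stromal cells in XX by 1.09 ± 0.10 (limma adjusted p = 1.7e-13). These are values of 1 of the 2 probe sets, and the level of *Col6a5* is uncertain to that extent. With the 2 clusters averaged, *Col6a5* was also called between the sexes in supporting cells at E12.5.

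The remaining collagens gave a near-constant signal. The 22 genes within 1.5-fold comprised 4 fibrillar, 3 basement membrane and 15 other genes, with group means from 5.62 to 7.95. They include cartilage collagens (*Col2a1*, *Col10a1* and *Col11a2*), the anchoring fibril gene *Col7a1*, the short-chain network genes *Col8a1* and *Col8a2* and the transmembrane genes *Col13a1*, *Col17a1*, *Col23a1* and *Col25a1*. On the whole newborn array *Col10a1*, a marker of hypertrophic cartilage, read 7.68 against a highest sorted group mean of 6.81, and it was the sole member of the 22 more than 1.5-fold above its highest sorted group. For the other 21, steady expression and a cluster that responds little cannot be told apart. *Col1a1*, outside the 22, read 9.83 on the newborn array, against 9.03 in its highest sorted group. The 8 genes of intermediate range were *Col4a5*, *Col5a1*, *Col5a2*, *Col6a5*, *Col9a1*, *Col11a1*, *Col26a1* and *Col27a1*, spanning 0.62 to 0.97.

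Genes that modify, secrete, cleave, crosslink or bind collagen were read from a list of 50, of which 46 were measured and 45 tested. In supporting cells 7 of the 45 were higher in XY at E11.5, 16 at E12.5 and 13 at E13.5, and 1 was higher in XX, at E13.5, beside backgrounds of 3.65%, 9.59%, 8.60% and 7.45% of all clusters. The largest difference was that of *Plod2*, the lysyl hydroxylase that prepares collagen telopeptides for crosslinking, with means of 10.80 in XY and 7.27 in XX at E12.5 (3.53 ± 0.17, limma adjusted p = 1.6e-24). *Plod2* differed by 2.29 ± 0.17 at E11.5 and 2.99 ± 0.17 at E13.5. *Sparc*, a collagen-binding matricellular protein, was 1.13 ± 0.09 higher in XY at E11.5. At E12.5 *Itga11*, a subunit of an integrin receptor for fibrillar collagen, was 1.56 ± 0.12 higher in XY. *Pcolce*, which enhances procollagen C-propeptide cleavage, was 1.74 ± 0.17 higher in XY at E13.5. *Bmp1*, the protease of that cleavage, was the gene higher in XX, with a difference of -0.93 ± 0.13 at E13.5.

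Among the mesenchymal populations, XX stromal cells had 6 of 45 above each other lineage (background 1.42%) and XY interstitial cells 7 (background 2.32%), and both lists held *Creb3l1*, a transcription factor of the collagen secretory load, *Lox*, the crosslinking enzyme, and the fibril-binding proteoglycans *Dcn* and *Lum*. At E13.5, 6 were higher in XY interstitial cells (background 3.45%), among them *Creb3l1* (1.02 ± 0.20), *Fn1* (1.00 ± 0.19), *Pcolce* (0.94 ± 0.17) and *Plod2* (0.69). *Tgfbi*, a matrix protein that binds collagen, was higher in XX stromal cells at that stage (-1.14 ± 0.21) and higher in XY supporting cells at E12.5 (1.66). With stage, 8 rose in XY interstitial cells (background 2.77%), among them *Dcn* (1.36), *Creb3l1* (1.22), *Bgn* (1.09) and *Lum* (1.09), beside the 8 collagens. Endothelial cells of both sexes had 4 handling genes above each other lineage (background 4.78% in XX and 3.86% in XY), including the collagen receptor subunits *Itga1* and *Itga2*. In germ cells the gene so enriched was *Pcolce2* in both sexes (background 10.1% in XX and 9.78% in XY), whereas 6 in XX (background 5.88%) and 9 in XY (background 6.37%) were lower than in each other lineage, among them *Serpinh1*, the collagen chaperone, and *Sparc*.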

How the data were processed

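Reporter-positive cells were sorted from pooled XX or XY gonads, and their amplified RNA was hybridised to 1 array per sample. The deposited table holds log2 intensities that the authors made with robust multichip averaging, quantile normalization and adjustment of probes for GC content in Partek. Which arrays were normalized together and the genome build are not given in the sources used here. Values of 35557 transcript clusters on 91 arrays ran from 3.54 to 14.1, with array medians of 6.56 to 6.81. The authors' removal of cross-hybridising clusters was not applied. Quantile normalization makes arrays share 1 distribution, so levels are relative, and the 3 arrays per group limit the precision.

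Groups were taken from the labels, and the reporter of the interstitial and stromal cells is not reported here. In R 4.3.3, limma 3.58.1 (lmFit and eBayes) fitted 1 mean per group over 72 arrays (24 groups, 16820 clusters, 48 residual degrees of freedom) or, with αSma-EYFP cells, 90 arrays (16859 clusters), keeping clusters above log2 6 in at least 2 arrays of a group. Genes were called at a Benjamini-Hochberg adjusted p under 0.05 over all clusters and a fold above 1.5. Lineage calls averaged the stages and needed every pairwise difference. The rule for named genes took up to 6 called collagens per direction, the 10 with the highest group mean, the type IV genes and up to 4 handling genes per direction. The members and lists were chosen with earlier results of these data known. The fit was tested on simulated data. Replicate numbers were checked for pairing by the correlation of deviations from the group mean between same-numbered arrays of the sexes. E12.5 germ cells alone passed 0.1 in all 3 pairs (0.13, 0.14 and 0.21). E11.5 germ cells fell short with 0.20, 0.23 and 0.08. No block was used in the main fit, E12.5 germ cells included. Promoters came from RefSeq (GRCm38.p6), with 35 of 44 genes matched. Figures were drawn with matplotlib 3.10.9.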

Additional observations from a re-analysis of the deposited data

Results flagged for a closer look

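Sex differences that differed between lineages by an interaction test at E13.5 were called for 11 pairs of gene and lineage. All values are log2 differences of XY minus XX. For supporting cells the calls were 6.82% of the 44 above 0 (background 5.56%) and 9.09% below (background 5.54%). For endothelial cells they were 2.27% above (background 1.77%) and 6.82% below (background 1.56%). Against interstitial and stromal cells, supporting cells had a difference of 3.73 for *Col14a1* against 1.14 (2.59), 1.44 for *Col18a1* against 0.16 (1.28), 1.34 for *Col9a3* against 0.08 (1.26) and -3.92 for *Col12a1* against -2.17 (-1.76). For *Col3a1* the supporting difference was -0.56 against 0.62 (-1.18), for *Col6a1* it was -0.63 against 0.47 (-1.10) and for *Col4a1* 0.24 against 1.09 (-0.84). Endothelial cells had -0.31 for *Col4a1* against 1.09 (-1.40), -0.19 for *Col4a2* against 0.78 (-0.96), -0.22 for *Col15a1* against 0.57 (-0.79) and -0.54 for *Col12a1* against -2.17 (1.63). Limma adjusted p-values of these 11 interactions ran from 7.8e-10 to 0.0032.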

How the results depend on the processing

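Of 85 called differences of single collagens, 85 were called again with a stricter filter at log2 7, no filter and 1 fit over 90 arrays. With renewed quantile normalization 84 were. The filters and the fit over 90 arrays leave each log2 difference as it was and shift only the p-values. No call near the fold limit could be lost on its fold by them. The limits of the methods (unadjusted p) and no fold limit only loosen the rule, so all 85 were bound to stay. Averaging the clusters of a gene changes only *Col6a5* and *Col6a6* among the collagens. Neither was among those called, so the 85 kept there are no test either. Renewed quantile normalization lost the rise of *Col15a1* in XY *αSma-EYFP* cells and *Col6a1* from the genes enriched in XY interstitial cells, and 0 reversed. With the replicate number as a block, 79 were kept and 6 lost, namely *Col1a2* and *Col3a1* in interstitial and stromal cells at E13.5, *Col3a1* in endothelial cells at E13.5, *Col1a2* in *αSma-EYFP* cells at E12.5 and *Col1a2* and *Col3a1* there at E13.5, so the replicate block took the endothelial sex count at E13.5 from 2 to 1. The cause was not tested. Among the groups with lost calls, same-numbered arrays of the sexes had correlations of 0.36, 0.08 and 0.27 in E13.5 *αSma-EYFP* cells. At E12.5 those cells had 0.02, 0.09 and 0.22. The correlations were negative in E13.5 interstitial and stromal cells and in E13.5 endothelial cells. Whether same-numbered arrays share a preparation is not known here. The limits of the methods took the interstitial sex count at E11.5 from 0 to 1.

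Without a fold limit, which admits smaller differences by construction, enriched counts became 7 in XX stromal, 7 in XX endothelial, 7 in XY supporting, 9 in XY interstitial and 5 in XY endothelial cells, lower counts in germ cells 10 in XX and 7 in XY, sex counts 12 in supporting cells at E13.5 and 8 and 12 in *αSma-EYFP* cells at E12.5 and E13.5, stage counts 13 in XY interstitial, 7 in XY endothelial and 5 in XX *αSma-EYFP* cells, *αSma-EYFP* against interstitial or stromal counts 6 in XX and 13 in XY, and the supporting interaction 12. The share of all clusters without the fold limit is not given, so these counts are not read against the backgrounds above. Averaging clusters of a gene took *αSma-EYFP* against stromal cells in XX from 0 to 1 (*Col6a5*). It also added *Col6a5* to the sex lists of supporting cells at E12.5 and of *αSma-EYFP* cells at E12.5 and E13.5. The stage list of XX *αSma-EYFP* cells gained the gene as well. Without the E11.5 groups, chosen after seeing the data, lower counts in germ cells were 1 in XX (*Col12a1*) and 4 in XY (gaining *Col18a1* and *Col6a1*), XY supporting cells had 4 enriched (gaining *Col14a1*, *Col18a1* and *Col9a2*), XX stromal cells gained *Col1a1* and XY endothelial cells lost *Col4a1*. Without the E13.5 groups, also chosen after seeing the data, XY interstitial cells lost *Col6a1*.

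Leaving out 1 array at a time, the stage count ran from 1 to 2 in XX endothelial and from 1 to 6 in XY endothelial cells (6 without E13.5 XY replicate 3), the sex count from 3 to 7 in *αSma-EYFP* cells at E12.5, from 1 to 5 in endothelial cells at E13.5 (5 without E13.5 XY replicate 3) and from 0 to 1 in interstitial cells at E11.5 (*Col14a1*, without XY replicate 3), and the XY supporting enriched count from 1 to 2. The interstitial and stromal sex list at E13.5 lost *Col1a2* and *Col3a1* without XX replicate 2 or XY replicate 2. It gained *Col15a1* and *Col6a3* without XX replicate 3 or XY replicate 1. In *αSma-EYFP* cells at E13.5 the sex list lost *Col1a2* and *Col6a3* without XX replicate 1 or XY replicate 3. Counts of further comparisons changed too, so those not named here are not thereby stable. With 3 arrays a group, differences near 1.5-fold depended on single arrays.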
